A study of Rattus norvegicus with 4 samples.

Results

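Endothelial cells line the blood vessels of the liver, and the set described here is a list of 10 of their marker genes, chosen by symbol. The genes Lyve1, Stab2, Clec4g and Fcgr2b mark the sinusoids, the capillaries between the plates of hepatocytes, and Pecam1, Kdr, Cdh5, Eng, Flt1 and Tek mark endothelium in general. Of the 10 genes, 6 had a probe named for them alone on the array, 2 of the 4 sinusoidal and 4 of the 6 general ones, among 12463 named genes in all. Those 6 genes had 12 probes, of which 7 passed the filter on dim signals, with at least 1 for each gene. No probe carried the name of Clec4g, Cdh5 or Eng, and the expression of these 3 genes was not analysed here. Fcgr2b shares its probe with Fcgr2a in the annotation, and the values of that probe are given apart.

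The livers came from 4 male rats of the OLETF strain (Otsuka Long-Evans Tokushima Fatty), which grows obese and then diabetic without a special diet. From 4 weeks of age, 2 of them drank water with 0.2% thiamine (2 g per L) for 51 weeks and 2 untreated rats drank water without it. All had standard chow, were 55 weeks old and had gone 16 h without food, and each liver was hybridised to its own 1-colour CodeLink array. The study kept 8 rats per group, housed 2 to a cage, and the labels used here do not say how the 4 measured rats were caged.

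Sinusoidal endothelium differs from other capillaries in that its cells are perforated by open pores and rest on little basement membrane, so plasma reaches the hepatocytes directly. The same cells clear waste from blood through scavenger receptors, among them the hyaluronan receptors Lyve1 and Stab2. Growth and survival of endothelium depend on vascular endothelial growth factors, read by the receptors Kdr and Flt1, and on angiopoietins, read by Tek. Junctions between the cells hold Pecam1 and Cdh5, while Eng is a coreceptor for ligands of the transforming growth factor beta family.

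Of the 33849 gene probes, between 18176 and 20071 were above background on an array, and 18664 entered the comparison. The hepatocyte markers Alb, Ttr, Tf and Serpina1 lay between 15.04 and 15.36 on the log2 scale on the 4 arrays. Quality flags other than low or saturated signal fell on 7.94% and 1.68% of the gene probes of thiamine rats 1 and 2 and on 6.38% and 3.74% of those of untreated rats 1 and 2. Of the spots used for the 6 genes, 1 carried such a flag: that of Tek on the array of untreated rat 1, for contamination.

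Promoters of measured genes are shown to set 2 sinusoidal genes beside 2 growth factor receptors that were all higher on average in the thiamine livers. The 250 bases before the start site are given 5′ to 3′ on the gene's strand, from the RefSeq table of build GRCr8, which held 4 of the 6 measured genes. Capitals mark GGAAGT or its reverse complement ACTTCC, a core of the sites bound by ETS factors, which are active in endothelium. The windows are chr1:174410978-174411227 on the minus strand for Lyve1, chr7:23320563-23320812 on the minus strand for Stab2, chr14:32571813-32572062 on the plus strand for Kdr and chr12:12333180-12333429 on the plus strand for Flt1. Those of Stab2 and Flt1 lie within the annotated extent of the gene.
Lyve1: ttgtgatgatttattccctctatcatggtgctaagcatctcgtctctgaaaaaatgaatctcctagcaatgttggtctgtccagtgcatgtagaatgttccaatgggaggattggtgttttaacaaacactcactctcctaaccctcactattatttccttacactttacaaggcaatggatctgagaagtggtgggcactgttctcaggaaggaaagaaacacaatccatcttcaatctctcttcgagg
Stab2: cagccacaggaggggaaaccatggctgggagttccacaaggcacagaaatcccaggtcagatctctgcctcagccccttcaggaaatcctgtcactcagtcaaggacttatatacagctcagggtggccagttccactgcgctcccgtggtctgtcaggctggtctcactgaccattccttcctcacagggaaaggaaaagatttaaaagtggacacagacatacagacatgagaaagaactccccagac
Kdr: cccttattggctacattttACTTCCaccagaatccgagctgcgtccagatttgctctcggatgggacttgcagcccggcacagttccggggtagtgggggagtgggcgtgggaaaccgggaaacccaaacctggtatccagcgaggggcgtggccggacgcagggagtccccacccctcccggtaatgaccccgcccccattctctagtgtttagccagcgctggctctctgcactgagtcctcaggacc
Flt1: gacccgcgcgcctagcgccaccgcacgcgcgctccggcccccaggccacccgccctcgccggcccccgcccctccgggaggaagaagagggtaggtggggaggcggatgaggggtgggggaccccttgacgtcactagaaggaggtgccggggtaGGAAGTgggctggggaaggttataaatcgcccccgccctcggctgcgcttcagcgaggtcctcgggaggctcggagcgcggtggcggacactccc

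The ETS letters occurred once in the window of Kdr, 231 bases before the start, and once in that of Flt1, 95 bases before it, and in 19.2% of the 33469 promoter windows of this length in the table. They are not in the windows of Lyve1 and Stab2. Of the genes not measured, the sinusoidal Clec4g held them once, 80 bases before the start, and the general Eng once, 129 bases before it. The letters thus did not divide the sinusoidal from the general genes. A GATA core, AGATAA or its reverse complement TTATCT, was in none of the 4 windows shown and in 10.3% of all. The share of G and C was 41.6% for Lyve1, 52.4% for Stab2, 61.6% for Kdr and 73.2% for Flt1. A match is a description of letters, and no binding was measured.

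The comparison asked how these genes differ in the liver after long thiamine intake. All 6 measured genes had a higher mean in the thiamine livers, by between 0.22 and 0.77 on the log2 scale, and none passed the test over all probes. Lyve1 was 1.71-fold and Pecam1 1.46-fold higher, and Flt1 was 1.17-fold and Stab2 1.20-fold higher, with overlap between the groups for the latter pair. The groups did not overlap for 4 of the 6 genes, Lyve1, Pecam1, Kdr and Tek, where 18.5% of all 8985 measured genes were separated in this direction. Over all genes, 50.6% had a higher mean in the thiamine livers and the median difference was 0.0.

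Lyve1, the receptor that takes up hyaluronan on sinusoidal and lymphatic endothelium, had background-subtracted intensities of 1892 and 1501 in thiamine rats 1 and 2 and of 719 and 954 in untreated rats 1 and 2. After normalization its log2 values were 10.82 and 10.52 against 9.72 and 10.08. Both thiamine livers were above both untreated ones, with a gap of 0.44 between the nearest rats, more than the 0.30 and 0.36 between the rats of 1 group. The difference was 0.77 ± 0.20 (log2, moderated SE, n = 2 per group, 95% interval 0.32 to 1.22), larger than that of 99.3% of genes, and did not pass (limma, adjusted p = 0.31). Leaving out 1 rat gave between 0.59 and 0.95.

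Stab2, the scavenger receptor that clears hyaluronan and other waste from blood, stood at log2 values of 8.82 and 8.20 in thiamine rats 1 and 2 and of 7.89 and 8.59 in untreated rats 1 and 2. The groups overlapped, with untreated rat 2 above thiamine rat 2, and the rats of 1 group were 0.62 and 0.70 apart. The difference of 0.27 ± 0.27 (log2, moderated SE, n = 2 per group, 95% interval -0.32 to 0.86) was no larger than its error (limma, adjusted p = 0.90). Leaving out thiamine rat 1 gave -0.04 and leaving out untreated rat 1 gave -0.08, while leaving out either rat numbered 2 gave 0.58 (thiamine) and 0.62 (untreated). Lyve1 and Stab2 thus shared thiamine rat 1 as the highest liver and untreated rat 1 as the lowest, and differed in the order of the other 2 rats.

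**Figure D1:**
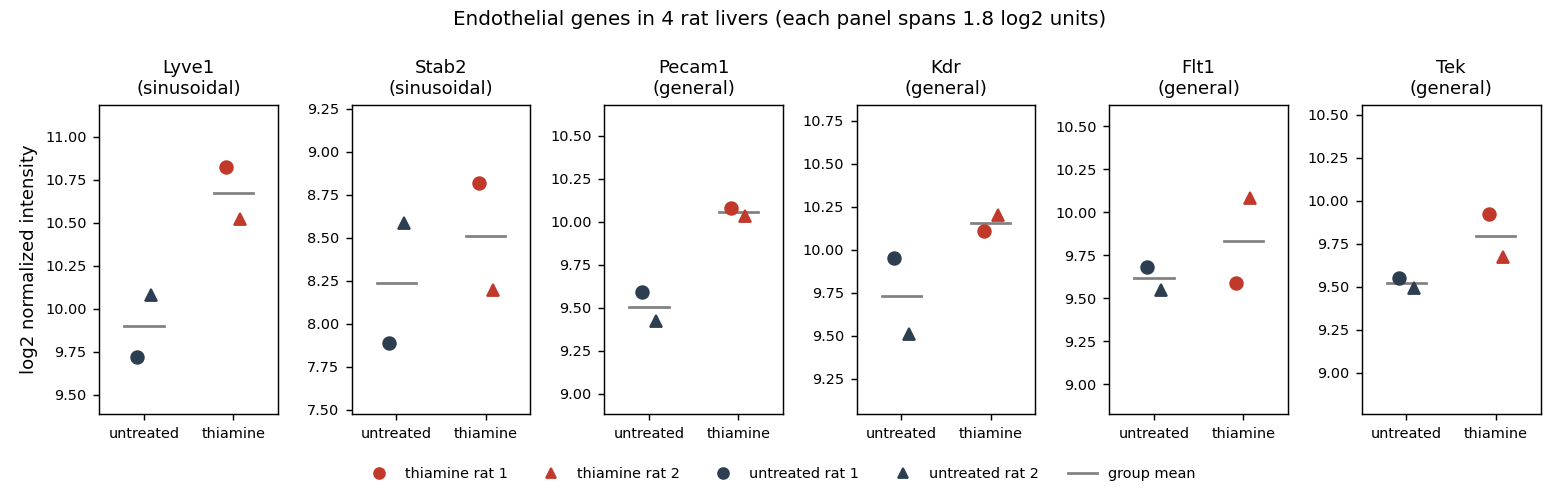
Log2 normalized intensity of the 6 measured endothelial genes, 1 panel per gene, with a point per rat and a grey bar at the mean of the 2 rats of a group. The groups are apart for Lyve1, Pecam1, Kdr and Tek and overlap for Stab2 and Flt1; levels are not comparable between panels.

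The probe that the annotation gives to both Fcgr2b and Fcgr2a, Fc gamma receptors of which Fcgr2b is the form of sinusoidal endothelium, was at 9.80 and 9.84 in thiamine rats 1 and 2 and at 9.36 and 9.0 in untreated rats 1 and 2. The groups did not overlap. Its difference was 0.64 ± 0.19 (limma, adjusted p = 0.42) and lay between 0.46 and 0.83 when 1 rat was left out. Macrophages carry Fcgr2a and Fcgr2b as well, the probe cannot tell the genes apart, and it is counted for neither.

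Among the general genes, Pecam1, an adhesion molecule of endothelial junctions that platelets and leukocytes also carry, was measured by 2 probes. The brighter one gave 10.08 and 10.03 in thiamine rats 1 and 2 and 9.59 and 9.42 in untreated rats 1 and 2. The thiamine livers lay 0.05 apart and the nearest rats of the 2 groups 0.44 apart. The difference was 0.55 ± 0.18 (log2, moderated SE, n = 2 per group, 95% interval 0.15 to 0.95; limma, adjusted p = 0.51), between 0.46 and 0.64 without any 1 rat. The dimmer probe was above background in both thiamine livers, at 7.53 and 7.57, and not well above background in either untreated liver, at 6.97 and 7.18. It was at least 1.23-fold higher in the thiamine livers (limma, adjusted p = 0.62), a bound set by the lowest signals above background. The dimmer probe passed the filter through the thiamine group alone, so its direction adds no support to that of the brighter one.

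Kdr, the main signalling receptor for vascular endothelial growth factor A, was at 10.11 and 10.20 in thiamine rats 1 and 2 and at 9.95 and 9.51 in untreated rats 1 and 2. The groups did not overlap, but untreated rat 1 was 0.16 below the nearest thiamine rat and 0.44 above untreated rat 2. The difference was 0.42 ± 0.20 (log2, moderated SE, n = 2 per group; limma, adjusted p = 0.76), 0.20 without untreated rat 2 and 0.64 without untreated rat 1. A second probe of Kdr was above background on 1 array only, that of thiamine rat 1, and was left out.

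Flt1, a receptor that binds the same growth factors and also circulates in a soluble form that holds them back, was at 9.59 and 10.08 in thiamine rats 1 and 2 and at 9.68 and 9.55 in untreated rats 1 and 2. Thiamine rat 2 stood apart from the other 3 livers, which lay within 0.13 of each other on the log2 scale. The groups overlapped, and the difference of 0.22 ± 0.21 (limma, adjusted p = 0.90) was -0.02 when thiamine rat 2 was left out, and was 0.47 when thiamine rat 1 was. The other 2 probes of Flt1 were not well above background on any of the 4 arrays.

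Tek, the angiopoietin receptor that keeps vessels quiescent, was at 9.92 and 9.67 in thiamine rats 1 and 2 and at 9.55 and 9.49 in untreated rats 1 and 2. The untreated livers differed by 0.06 and the nearest rats of the 2 groups by 0.12. Its difference was 0.28 ± 0.18 (log2, moderated SE, n = 2 per group, 95% interval -0.13 to 0.69; limma, adjusted p = 0.85), with 0.16 when thiamine rat 1 was left out and 0.40 when thiamine rat 2 was. With the flagged spot of untreated rat 1 set to missing it was 0.31. The other 2 probes of Tek were not well above background on any of the 4 arrays.

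**Figure D2:**
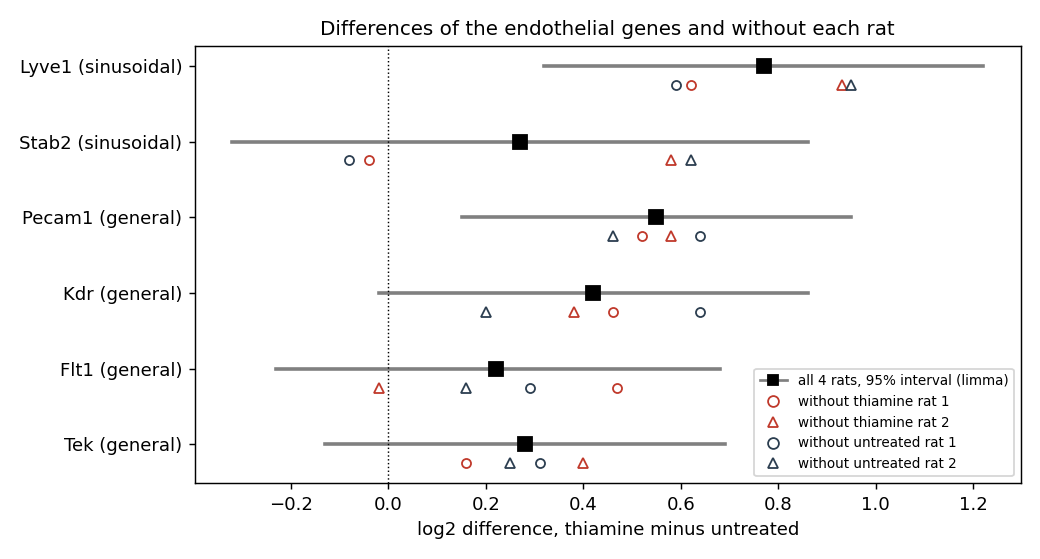
Log2 difference, thiamine minus untreated, of the 6 endothelial genes (squares) with the 95% interval of limma (grey lines), and the difference without each rat in turn (open symbols, 2 rats against 1). The intervals of Lyve1 and Pecam1 lie above 0 without adjustment over all probes, and without 1 rat the values of Stab2 and Flt1 reach -0.08 and -0.02.

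Limma with Benjamini-Hochberg adjustment over 18664 probes called 0 probes, or 0.0%, and so none of the 6 genes, whose adjusted p ran from 0.31 to 0.90. An unadjusted p under 0.05 by limma was reached by Lyve1 and Pecam1, 2 of the 6 genes, and in this direction by 3.83% of all genes. The number of genes higher in the thiamine livers was 6 of 6 with all rats and without untreated rat 2, and 5 of 6 without thiamine rat 1, thiamine rat 2 or untreated rat 1. The list was chosen with results of these data known, so these counts are a description. In whole liver, more endothelial cells and more of these RNAs per cell in the thiamine rats cannot be told apart.

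Set against each other, the sinusoidal genes had a median difference of 0.52 and the general ones of 0.35, which leaves 0.17 between them. Leaving out 1 rat turned that order. With thiamine rat 1 left out it was -0.18 and with untreated rat 1 left out -0.22. The rats numbered 2 acted the other way, giving 0.36 (thiamine rat left out) and 0.56 (untreated rat left out). The sinusoidal median rests on 2 genes and the general one on 4, and no test was made between them.

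Rat by rat, the mean deviation of Lyve1 and Stab2 from each gene's mean over the 4 livers was 0.49 and 0.03 in thiamine rats 1 and 2 and -0.52 and 0.0 in untreated rats 1 and 2. That of Pecam1, Kdr, Flt1 and Tek was 0.15 and 0.22 in the thiamine rats and -0.08 and -0.28 in the untreated ones. The sinusoidal genes were thus lowest in untreated rat 1, and the general genes in untreated rat 2. The means near 0 in both rats numbered 2 join opposite values: Lyve1 was at 0.24 in the thiamine rat and -0.20 in the untreated one, and Stab2 at -0.18 and 0.21.

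Markers of Kupffer cells, the macrophages that lie within the sinusoids, were also higher on average, in another order of the rats than Lyve1 and Stab2. Of 15 listed, 10 were measured, all above background on the 4 arrays, and all 10 were higher in the thiamine livers, with a median of 0.62, or 0.32 when thiamine rat 1 was left out. Their summed normalized intensity was 30882 and 21492 in thiamine rats 1 and 2 and 21015 and 13632 in untreated rats 1 and 2, so that thiamine rat 2 and untreated rat 1 were nearly equal. All 10 were highest in thiamine rat 1 and 9 were lowest in untreated rat 2, whereas Lyve1 and Stab2 were lowest in untreated rat 1. The general genes Pecam1, Kdr, Flt1 and Tek were lowest in untreated rat 2 as well. Of these, Pecam1 and Tek were highest in thiamine rat 1, and Kdr and Flt1 in thiamine rat 2. Among the first of the list, Cd163, a scavenger receptor for haemoglobin, differed by 0.61 ± 0.24, the lectin Clec4f by 0.62 ± 0.27, the lysosomal protein Cd68 by 0.40 ± 0.29 and the complement chains C1qa and C1qb by 0.81 ± 0.24 and 0.67 ± 0.21. Limma called 0 of the 10, and 7 were higher at an unadjusted p under 0.05, where 3.83% of all genes were. The groups did not overlap for 7 of the 10, all higher with thiamine, where 18.5% of all genes were separated in this direction. The list was chosen with results of these data known, so these counts are a description. The part of these cells in the values of the endothelial genes was not tested.

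**Figure D3:**
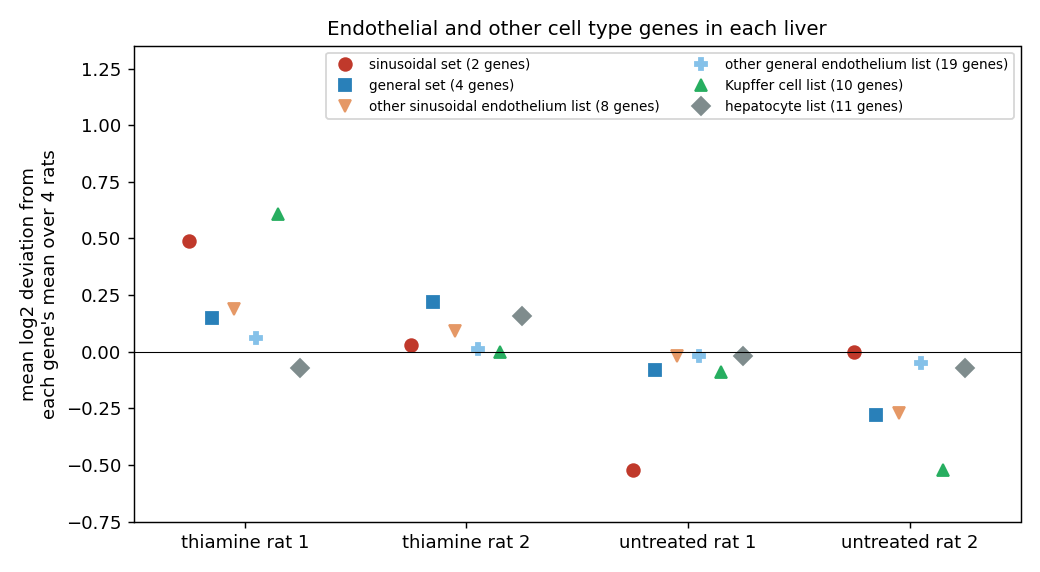
Mean deviation, on the log2 scale, of each set of genes from each gene's mean over the 4 livers, with 1 symbol per set and rat. The Kupffer cell list runs from 0.61 in thiamine rat 1 to -0.52 in untreated rat 2, where the general set is also lowest, at -0.28. The sinusoidal pair is lowest in untreated rat 1 at -0.52, and the hepatocyte list stays between -0.07 and 0.16.

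Other sinusoidal genes gave a wider picture. Of 10 listed, 8 were measured, 7 higher and 1 lower in the thiamine livers, with a median of 0.35 and 0 called (limma). Gpr182, an atypical chemokine receptor of sinusoidal endothelium, was at 9.80 and 9.37 in thiamine rats 1 and 2 and at 8.83 and 9.01 in untreated rats 1 and 2, a difference of 0.66 ± 0.20 with no overlap. Stab1, the paralogue of Stab2, was at 9.23 and 9.11 against 9.39 and 8.91 and differed by 0.02 ± 0.21. The secreted nuclease Dnase1l3, at 0.26 ± 0.23, and Oit3, at 0.44 ± 0.26, were lowest in untreated rat 2 and differed by -0.07 and -0.01 without that rat. Rspo3, a Wnt agonist made by endothelium near the central vein, differed by -0.24 ± 0.21.

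Groups that did not overlap were seen for 3 of these 8 genes, all higher with thiamine, where 18.5% of all genes were. Beside Gpr182 they were Bmp2, the endothelial signal for hepcidin synthesis, at 0.53 ± 0.19, and the coagulation factor gene F8, both named after their values were seen. F8 was not well above background in either untreated liver and was at least 1.19-fold higher in the thiamine livers. It passed the filter through the thiamine group alone, so its place among the higher and the separated genes is no support. The median of the list was 0.12 without untreated rat 2, 0.21 without thiamine rat 1 and 0.46 without untreated rat 1. The last rat, the lowest for Lyve1 and Stab2, was also the lowest for Gpr182 and the transcription factor gene Gata4. Untreated rat 2 was the lowest for Stab1, Oit3, Dnase1l3 and Bmp2. The untreated rats were not ranked for F8, which was near background in both.

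Further markers of endothelium in general differed less and in both directions. Of 25 listed, 19 were measured: 10 lay above 0 and 9 below it, the median was 0.12 (0.01 without thiamine rat 1 or untreated rat 1, 0.03 without untreated rat 2), and 0 were called or reached an unadjusted p under 0.05 (limma). The clotting protein Vwf, at -0.04 ± 0.18, and Tie1, the partner receptor of Tek, at -0.05 ± 0.18, were nearly level. Emcn, Icam2 and Esam, surface and junction proteins, differed by 0.16 ± 0.20, 0.25 ± 0.18 and 0.15 ± 0.18. The 19 differences lay between -0.17 and 0.32, below those of Pecam1 and Kdr. Of the 19, 5 had separated groups upwards and 2 downwards, where 18.5% of all genes were separated upwards and 19.0% downwards.

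**Figure D4:**
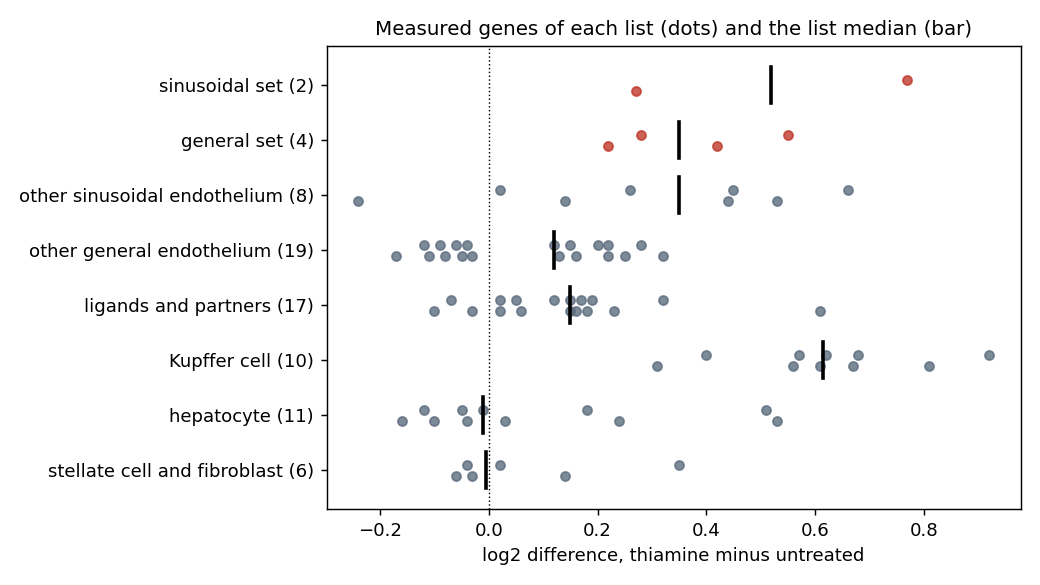
Log2 difference, thiamine minus untreated, of each measured gene (dots) and the median (bar) for the endothelial sets, further endothelial lists, growth factor ligands and partners, and other cell types, with the number of genes in parentheses. The medians are 0.52 and 0.35 for the sinusoidal and general sets, 0.62 for Kupffer cell markers and -0.01 for hepatocyte markers.

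The ligands of these receptors differed by at most 0.19 among those measured. Vegfa, the ligand of Kdr and Flt1, was at 11.61 and 11.56 in thiamine rats 1 and 2 and at 11.57 and 11.56 in untreated rats 1 and 2, a difference of 0.02 ± 0.18. Vegfb and Pgf, which bind Flt1, differed by 0.15 ± 0.18, with no overlap between the groups, and by 0.05 ± 0.18. Angpt4, an angiopoietin that binds Tek and is named after its values were seen, was at 8.30 and 8.59 in thiamine rats 1 and 2 and at 8.24 and 8.27 in untreated rats 1 and 2, a difference of 0.19 ± 0.19 with no overlap. The angiopoietins Angpt1 and Angpt2, ligands of Tek as well, and Vegfc had no probe above background on both arrays of a group and were not kept.

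Most of the measured partner receptors and signalling genes were also higher on average. The coreceptor Nrp1 differed by 0.23 ± 0.20, although 2 of its 3 kept probes were lower, Flt4, the receptor of lymphatic endothelium, by 0.17 ± 0.18 and Acvrl1, which signals with Eng, by 0.16 ± 0.21. The Notch ligand Dll4 and the receptor Notch1 differed by 0.15 ± 0.20 and 0.18 ± 0.22, and Id1, a target of Acvrl1 signalling, by 0.32 ± 0.18. Of 28 genes on this list, 17 were measured and 0 called (limma): 14 lay above 0 and 3 below it, and the median was 0.15. Without thiamine rat 2 that median came to 0.04, and without untreated rat 2 to 0.07. The 3 below 0 were Bmpr2 (-0.10), Smad1 (-0.07) and Notch4 (-0.03), named after their values were seen. Acvrl1 and Dll4 came to -0.08 and -0.06 without thiamine rat 2, and Notch1 to -0.12 without untreated rat 2. Nrp1, Flt4 and Id1 stayed above 0 without any 1 rat. The 1 gene at an unadjusted p under 0.05 (limma) was Id3, another target of Acvrl1 signalling, named after its values were seen. It was at 10.88 and 10.94 against 10.49 and 10.12, a difference of 0.61 ± 0.19.

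Markers of other cells of the liver lay on both sides of 0. The 11 measured hepatocyte markers had a median of -0.01, with 5 higher and 6 lower, between -0.16 and 0.53. The highest were Cps1, at 0.53 ± 0.18 with no overlap between the groups, and Tat, at 0.51 ± 0.36, both named after their values were seen. Of the 11, 3 were separated upwards and 1 downwards, where 18.5% and 19.0% of all genes were. The 6 measured markers of stellate cells and fibroblasts had 3 above and 3 below 0. Of the 2 measured cholangiocyte markers, Krt19 differed by 0.34 ± 0.19 and Epcam by -0.35 ± 0.27. Of 6 measured lymphocyte and neutrophil markers 4 lay above 0, and their median was 0.13 (-0.05 without thiamine rat 1, 0.02 without untreated rat 2), the 2 measured red cell genes had a median of 0.20 (0.01 without untreated rat 2), and the 2 of lymphatic endothelium had 0.08. None of the genes in these lists was called (limma).

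Among the genes most like the mean profile of the sinusoidal pair over the 4 livers were Il34, Msmo1, Smpdl3a and Rpe65. Likeness was the Euclidean distance of each gene's deviations from its own mean to the mean profile of Lyve1 and Stab2, among 8979 other genes, and these lay at 0.08, 0.08, 0.10 and 0.11. The mean profile joins opposite values of Lyve1 and Stab2 in some livers, so a gene near it need not be near either. Between single genes, Lyve1 and Stab2 were 0.60 from each other and Lyve1 was 0.47 from Pecam1, while Pecam1 and Kdr were 0.25 apart. These distances between genes are not comparable with those to the mean profile. With 4 livers many genes share any given order, and the distances are descriptions.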

How the data were processed

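Liver RNA of 4 rats was measured on 1-colour CodeLink arrays, 1 rat per array, 2 per group by the labels. Per the file headers, CodeLink Expression Analysis 5.0.0.31312 wrote the 4 reports, which hold intensity values on a linear scale for 35129 features. The deposited value table, used as an alternative, holds intensity values in the same order within each array (Spearman's rho of 1). How the authors scaled that table is not stated in the labels.

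Background was corrected by normexp with an offset of 50, control features (1280) were left out, and log2 values were quantile normalized. Probes stayed in if 1 group or both had them above background throughout. Masked spots (55 to 67 an array) counted as missing. Probes were named from the platform annotation and RefSeq accessions: 1 symbol was given for 16742, several for 165 (unnamed here), conflicting ones for 11, an accession named 367 and 16564 had none. A gene is its brightest kept probe. The test was limma's (version 3.58.1, R 4.3.3; lmFit and eBayes, two-sided), adjusted by Benjamini-Hochberg across the kept probes at 0.05. Each probe had 2 residual degrees of freedom, or 10.8 with moderation. The SE is the moderated one. A bound (at least N-fold) sets the bright group's mean against, per dim array, the higher of the lowest signal above background and the probe's own. The fit was tested on simulated data. The number of arrays limits the precision.

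The 10 genes and the lists were chosen with earlier results of these data known. Named genes were all of the 10, a stated set of ligands and partners, the first 5 measured of each other list in written order, and the 5 nearest profiles, and not each is printed; 1 of the nearest profiles is not reported here. The motifs were chosen after the data were seen. Alternatives were those of background, offset, scaling, filter, flagged spots, source table, probe choice, replicate block and leaving out each rat.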

Additional observations from a re-analysis of the deposited data

How the results depend on the processing

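The direction of Lyve1, Pecam1, Kdr and Tek was the same under all alternatives tried. Of 72 tested values of the 6 genes under an alternative, 69 kept their direction and side of the threshold. Part of this was fixed in advance, because the filters and the replicate block leave the difference of a gene unchanged. The groups of Lyve1, Pecam1, Kdr and Tek did not overlap, so leaving out 1 rat could hardly turn their sign. Setting flagged spots to missing could change only Tek among the 6 genes. The mean of all kept probes, with no test, could change only Pecam1, which had 2 kept probes and moved from 0.55 to 0.51. The other 3 of the 72 values changed sign: Stab2, which ran from -0.08 to 0.62 when 1 rat was left out (-0.04 without thiamine rat 1, -0.08 without untreated rat 1), and Flt1, which ran from -0.02 (without thiamine rat 2) to 0.47. The sinusoidal median ran from 0.26 to 0.78 without 1 rat, the general median from 0.22 to 0.47 and their difference from -0.22 to 0.56, with the sign turned without thiamine rat 1 (-0.18) and untreated rat 1 (-0.22). With all 4 rats that difference lay between 0.16 and 0.20. Of all probes, limma called 0, with 1260 at an unadjusted p under 0.05. It called 1 with background-subtracted intensities (floor of 16) and 1 with the deposited table, and between 2 and 87 without 1 rat, fits in which a single rat takes its spread from the other group. With the replicate number as a block it called 126, none of them among the 6 genes. Over 18650 probes the difference between rats 1 and 2 in the 2 groups correlated at -0.074. No label gives the replicate numbers a meaning, and the correlation cannot tell whether rats of the same number shared a cage or batch. The array signal limits Stab2, whose values of 7.89 to 8.82 lay near the lowest signals above background (7.08 to 7.25). It also limits 5 further probes of Kdr, Flt1 and Tek, which were not above background on both arrays of a group and were not kept.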
